A study of Mus musculus with 18 samples.

Results

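Between E14.5 and E16.5 the surface of the mouse digit tip changes from a thin, little differentiated epithelium to a stratifying epidermis, the nail region takes shape on its dorsal side, and cartilage, tendon and connective tissue mature beneath it. The wild-type digit tip was followed over this interval with 6 arrays, 3 at each stage, chosen by their labels (WT E14.5 and WT E16.5) from the 18 arrays of the series. The other arrays were WT E18.5 and the E14.5, E16.5 and E18.5 groups of embryos without Fzd6 (KO), a Frizzled receptor of the Wnt pathway. All embryos were C57BL/6 of mixed sex, came from crosses of Fzd6+/- mice, and carried no other allele or treatment per the sources used here. The KO embryos are Fzd6-/-, and the sources name no Cre or promoter that would limit the loss to a cell type. The design text names the tissue both as the tips of forelimb digits and as dissected forelimbs, and describes RNA from each embryo, so the arrays of a group are read as separate embryos. The embryo's RNA was labelled green (Cy3) throughout and hybridised against one reference labelled red (Cy5). That reference was a pool of 11 mouse cell lines mixed with 129ES embryonic stem cell RNA. A level is log2 of the Cy3 over the Cy5 signal of a 60-base probe, and a difference of 1 between stages is a 2-fold change. A digit tip holds many cell types, and more cells of a type cannot be told apart from more RNA per cell.

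The probes carry IDs that the files do not pair with genes. The probe for Fzd6 was not analysed here, so the genotype labels rest on the sources alone. Of the 742 genes in 22 lists of epidermal, nail, Wnt, limb and other cell type markers, 1 could be tied to a tested probe. It was Pax7, a regulator of muscle precursors, at -0.31, -0.25 and -0.31 at E14.5 and -0.41, -0.34 and -0.33 at E16.5. Its difference of -0.07 did not pass the test (standard error 0.09, limma adjusted p = 0.57). The labelled tissue was therefore not checked against its markers, and most of what follows describes probes by ID and sequence. Of the 42006 probes, 62.2% to 64.3% gave a Cy3 signal well above background on each of the 6 arrays, and 27989 were tested. The arrays of WT E14.5 correlated with each other at 0.989 to 0.993 across probes and those of WT E16.5 at 0.964 to 0.968. The median SD of a probe was 0.06 at E14.5 and 0.15 at E16.5.

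The following 60-base probes are among the largest rises and falls of the interval. They are the first 4 rises and first 2 falls, in order of size, that hold no AATAAA (a polyadenylation signal) and have a reading frame without a stop codon in the printed direction, 5′ to 3′. Their positions in the genome are not known from the tables used here, and nothing in them is capitalised because no part was singled out.
Z00033785-1 (rise): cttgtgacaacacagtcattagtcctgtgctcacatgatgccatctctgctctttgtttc
Z00040994-1 (rise): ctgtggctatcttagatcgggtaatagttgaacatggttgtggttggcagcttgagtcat
Z00026015-1 (rise): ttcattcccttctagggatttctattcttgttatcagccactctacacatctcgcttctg
Z00042903-1 (rise): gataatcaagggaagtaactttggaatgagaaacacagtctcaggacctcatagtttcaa
Z00056592-1 (fall): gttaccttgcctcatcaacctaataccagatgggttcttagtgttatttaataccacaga
Z00035258-1 (fall): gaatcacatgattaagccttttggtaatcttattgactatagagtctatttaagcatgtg

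The step from E14.5 to E16.5 was broad, and its large changes were mostly rises. Of the 27989 probes tested, 4535 rose, 16.2% of all, and 5305 fell, 19% of all (limma, Benjamini-Hochberg adjusted p under 0.05). Of the rises, 1370 were at least 2-fold, 489 at least 4-fold and 79 at least 16-fold. Of the falls, 354 were at least 2-fold and 17 at least 4-fold, and none reached 8-fold. The median called rise was 0.65 on the log2 scale and the median called fall was -0.48, while the median difference over all tested probes was -0.03. Of 14839 probes whose 3 arrays at one stage did not overlap with the 3 at the other (53% of those tested), 9659 were called.

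Both stages lay together on the same slides, so the slide can be held constant. Replicates 1 and 2 of both stages shared one slide, and replicate 3 of both stages shared another. The 4 arrays of the first slide alone called 8850 probes, 4185 up and 4665 down. On the second slide, whose single pair of arrays took no part in those calls, 95.9% of the rises measured there were higher at E16.5 and 90.0% of the falls were lower. Over all tested probes 46.8% were higher and 53.2% lower on that slide.

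The split between rises and falls moved with the scaling. With median centring in place of loess the calls numbered 2349 rises and 2106 falls, so that rises made up 52.7% of the calls in place of 46.1%. From the Cy3 channel alone they numbered 3660 and 6493, with 36.1% rises. Of the calls shared with these settings, 0 changed sign under median centring and 1 did from the Cy3 channel alone. A few spots flagged by the scanner software had local backgrounds far above their signal on 3 of the 6 arrays, and were given the array's median background. With every local background as deposited, 3556 probes rose and 4367 fell.

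**Figure D1:**
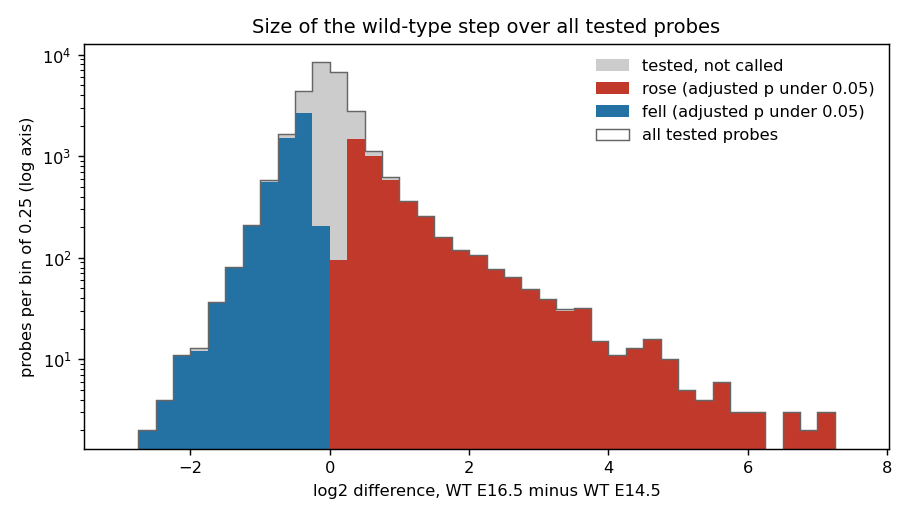
Number of tested probes (log axis) by log2 difference, WT E16.5 minus WT E14.5, in bins of 0.25, with called rises in red, called falls in blue and all tested probes outlined. The right side reaches 7.16, while the left side ends at -2.59.

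Some probes passed from background to a clear signal. A total of 374 called rises were well above background on none of the 3 arrays at E14.5 and on all 3 at E16.5. The reverse held for 138 called falls. Over all tested probes, called or not, 434 showed the first pattern and 290 the reverse. Of the 79 rises of at least 16-fold, 27 were above background on none of the E14.5 arrays, 45 were above it on all 3, and all 79 were above it on all 3 at E16.5. Of the 354 falls of at least 2-fold, 337 were still well above background on all 3 arrays at E16.5. The large falls were thus mostly to a lower level and not to background.

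The 10 largest rises started between -0.72 and 0.51 at E14.5, where the offset that stabilises dim signals compresses differences, and their order by size is not firm. Z00033785-1 lay at 0.13, 0.16 and 0.09 at E14.5 and at 7.04, 7.45 and 7.38 at E16.5. Only 1 of its 3 E14.5 arrays passed the background test, against all 3 at E16.5, so its fitted log2 rise of 7.16 starts from a level mostly not above background and is given without a fold (standard error 0.55, limma adjusted p = 3.52e-08). Standard errors throughout rest on the spread within all 6 groups, KO included. For this probe the KO E14.5 arrays lay at 1.18, 3.55 and 0.09, while the WT SDs were 0.03 at E14.5 and 0.22 at E16.5. Z00040994-1 was not well above background on any E14.5 array and lay at -0.52, -0.55 and -0.72, against 6.53, 6.61 and 6.41 at E16.5. Its rise was at least 123-fold, a bound from scaled Cy3 signals that is open to dye bias because dyes were not swapped (fitted log2 difference 7.11, standard error 0.39, limma adjusted p = 7.07e-10).

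Other probes of this group showed what became of the rise later. Z00022762-1 went from 0.03, 0.11 and -0.12 at E14.5 to 6.41, 6.87 and 6.64 at E16.5, and lay at 7.47, 7.35 and 8.36 at E18.5. It was above background at both stages, and every later array was above every earlier one. Z00071877-1 went from 0.16, 0.05 and -0.04 to 6.59, 6.97 and 6.92, and lay at 2.49, 1.56 and 0.01 at E18.5. It was above background on none of the E14.5 arrays, and its E18.5 arrays lay well below its E16.5 arrays with no overlap. Z00026015-1, also above background on none of the E14.5 arrays, lay at an intermediate level at E18.5, with -0.10 to 0.08 at E14.5, 6.94 to 7.19 at E16.5 and 1.42 to 4.47 at E18.5. Z00031262-1 went from -0.12 to 0.00 up to 5.73 to 6.24 and lay at 3.09 to 4.13 at E18.5. The other 6, Z00033785-1, Z00040994-1, Z00077092-1, Z00042903-1, Z00059474-1 and Z00040191-1, lay between 5.14 and 7.97 at E18.5.

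Over the 79 rises of at least 16-fold, the E18.5 mean was above the E16.5 mean for 42 and below it for 37, by 4-fold or more for 16. Over the 489 rises of at least 4-fold, 222 were higher and 267 lower at E18.5 than at E16.5, and 36 were lower by 4-fold or more. These counts share the E16.5 arrays with the rise itself and are a description.

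The 10 largest falls differed in level but all remained above background on every array of both stages. Z00056592-1 lay at 4.77, 5.04 and 4.75 at E14.5 and at 2.63, 2.25 and 1.91 at E16.5. Its fall of 2.59 on the log2 scale was 6.02-fold (standard error 0.30, limma adjusted p = 4.58e-06), and its E18.5 values of 0.87 to 1.68 were lower still. Z00035258-1 lay at 5.07, 5.31 and 5.21 and then at 3.32, 2.64 and 1.89. Its E16.5 arrays were spread more widely than its E14.5 arrays but did not overlap with them, and its E18.5 values were 2.83 to 3.35. Z00018218-1 was the only one of the 10 below the reference at both stages, at -0.15, -0.18 and -0.21 and then at -2.40, -2.65 and -2.36.

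Z00023199-1 had the smallest standard error of these 10, with a fall from 3.71, 3.82 and 3.75 to 1.64, 1.44 and 1.55, a difference of -2.21 (standard error 0.14, limma adjusted p = 2.20e-09). Z00076581-1 had the largest (0.81), with 2.99, 3.27 and 0.93 at E14.5 and 0.61, 0.59 and -0.48 at E16.5. Its E14.5 array of replicate 3 lay nearer to the E16.5 arrays than to its own group (limma adjusted p = 0.0476). The call was lost when any of the 6 arrays other than WT E14.5 replicate 3 was left out, with adjusted p between 0.0682 and 0.171. No background subtraction, Agilent processed signals and the authors' value table also ended it (adjusted p = 0.0502, 0.112 and 0.105). So did leaving out the filter on dim probes and adding the scan date to the fit (0.0704 and 0.0535). The remaining 5 falls were between -2.42 and -2.08. One of them, Z00028437-1, fell by 2.21 on the log2 scale, but with Agilent processed signals its difference was -1.40 and the call was lost (adjusted p = 0.304). Of the 354 falls of at least 2-fold, 248 were lower again at E18.5 and 106 were higher.

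**Figure D2:**
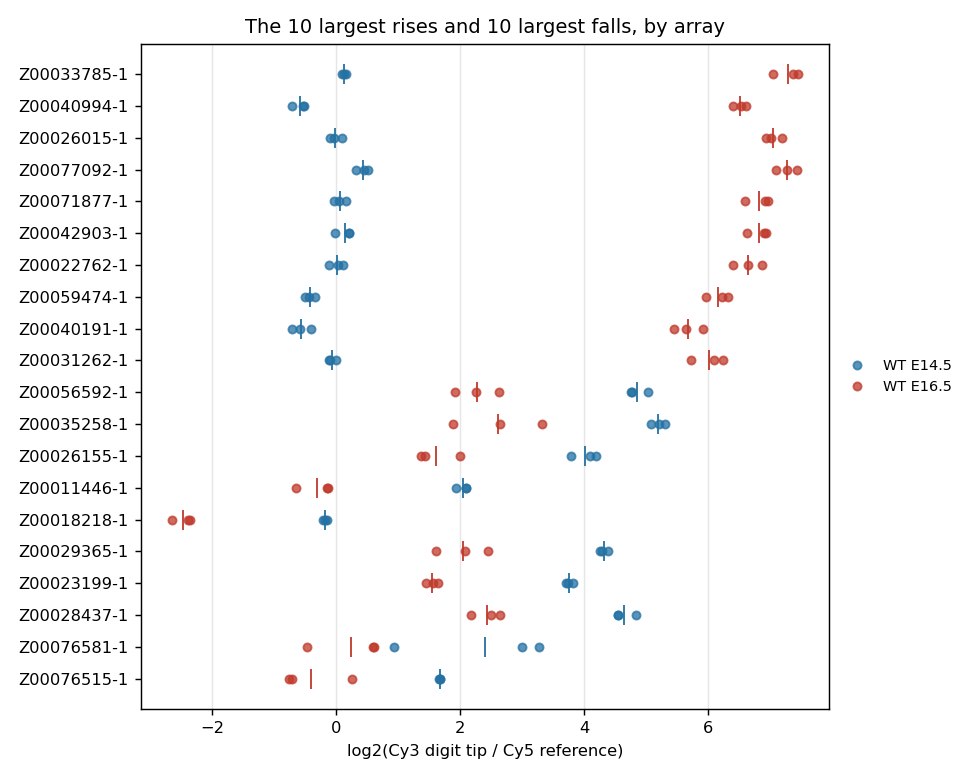
Level of each probe as log2 of Cy3 over Cy5 on the 3 WT E14.5 arrays (blue) and 3 WT E16.5 arrays (red), with a vertical tick at each mean, for the 10 largest rises (top) and 10 largest falls (bottom). The rises start within 1 unit of 0 and end between 5.44 and 7.45, whereas Z00076581-1, second from the bottom, has 1 blue point close to its red points.

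A small set of probes could be given a gene. A probe was placed on the mouse genome (GRCm38.p6) where at least 30 of its bases, and all that reached into the window, matched a RefSeq promoter window exactly, and named where it lay inside 1 gene on the same strand. This placed 416 probes once and named 134 tested genes. Such probes lie near a gene's start or in a gene that ends beside its neighbour's start, so they are no sample of all genes, and whether they lie in an exon or an intron is not given by the tables used here. Of the 134 genes, 19 rose and 12 fell, 14.2% and 8.96%, against 16.2% and 19% of all tested probes. Their median difference was 0.04, against -0.03 over all.

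Plet1, a surface protein known from placenta and hair follicle epithelium, rose most among the named genes. Its probe lies at chr9:50505002-50505061 on the plus strand, near the far end of the gene, with 54 of its bases in a window. It lay at -1.97, -1.43 and -1.85 at E14.5 and at 2.97, 2.74 and 2.63 at E16.5, and at 0.95 to 1.19 at E18.5. The E16.5 arrays stood above all others, 23.1-fold over E14.5 (log2 4.53, standard error 0.54, limma adjusted p = 6.69e-06).

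Tor1aip2, which encodes a nuclear envelope partner of torsinA, rose 5.43-fold, from 0.17, 0.14 and 0.01 to 2.67, 2.78 and 2.19 (standard error 0.15 on the log2 scale, limma adjusted p = 3.22e-09). Its probe lies near the start of the gene, at chr1:156035836-156035895, on the plus strand. Il17rc, a receptor subunit for interleukin 17 cytokines that act on epithelia, rose 5.41-fold, from -1.25, -1.35 and -1.46 to 1.11, 1.24 and 0.89 (limma adjusted p = 1.50e-10). Only 33 bases of that probe were matched, and it lies at the end of the gene beside the start of Creld1. Fam180a rose 2.96-fold, from -0.50, -1.09 and -1.04 to 0.62, 0.85 and 0.60, with E18.5 values of 1.06 to 2.37. The probes of Tor1aip2 and Fam180a are printed because all their bases matched the reference, which the capitals mark, and both have a reading frame without a stop codon.
Tor1aip2 (chr1:156035836-156035895, plus strand): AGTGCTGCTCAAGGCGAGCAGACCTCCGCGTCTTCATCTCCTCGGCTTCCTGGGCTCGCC
Fam180a (chr6:35312995-35313054, minus strand): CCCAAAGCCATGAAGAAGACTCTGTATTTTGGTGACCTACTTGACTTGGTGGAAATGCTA

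Smaller rises were found for 8 further genes named by the same rule. Abhd6, a lipase that breaks down monoacylglycerols, rose 2.12-fold, from 0.45, 0.36 and 0.38 to 1.44, 1.71 and 1.30 (limma adjusted p = 1.61e-05). Pitpnm2, a phosphatidylinositol transfer protein, also rose 2.12-fold, from -0.29, -0.09 and -0.21 to 0.93, 1.05 and 0.67 (limma adjusted p = 6.51e-05). S100a7a, a calcium-binding protein of the S100 family known from epidermis, rose 1.60-fold, from -0.06, -0.19 and -0.22 to 0.70, 0.85 and 0.03. Its E16.5 array of replicate 3 lay only just above the E14.5 arrays. Crxos, Dclre1b (a nuclease of telomere and DNA repair), C1qtnf3 (a secreted protein of the complement C1q and tumour necrosis factor family), Gm36449 (a long non-coding RNA) and Hspd1 (the mitochondrial chaperonin) rose by 0.91, 0.81, 0.74, 0.71 and 0.56 on the log2 scale.

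The falls among named genes were small, and 11 met the naming rule. Gstp1, a glutathione transferase of detoxification, lay at -1.35, -1.44 and -1.46 and then at -1.79, -1.82 and -1.76, 1.30-fold lower (limma adjusted p = 0.00396), and at -2.34 to -2.06 at E18.5. Gtf2h4, a subunit of the transcription and repair factor TFIIH, fell from -0.35, -0.35 and -0.34 to -0.78, -0.76 and -0.75, 1.33-fold. Mlst8, a subunit of the mTOR complexes, fell 1.33-fold, from 1.31, 1.23 and 1.32 to 0.90, 0.71 and 1.01. The calls of these 3 genes were lost under median centring, at adjusted p = 0.23 for Gtf2h4, 0.199 for Mlst8 and 0.205 for Gstp1.

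The other named falls were Gm6592, Gm1673, A830092H15Rik, Podxl2, Unc13b, A430027H14Rik, Zbtb22 and 4930563E22Rik, between -0.63 and -0.25 on the log2 scale. A830092H15Rik and A430027H14Rik were well above background on only 1 of the 3 E16.5 arrays, so their falls end near background. The Gm6592 probe shares a run of at least 25 bases with 3 other tested probes that did not pass the test, so its value is uncertain. Its E16.5 array of replicate 3, at 0.70, lay just below its E14.5 range of 0.74 to 0.98. Its call was lost without WT E14.5 replicate 1 or 3 or WT E16.5 replicate 1 or 2, with adjusted p between 0.0526 and 0.106. Podxl2, a sialomucin of the cell surface, fell from 2.37, 2.32 and 2.21 to 1.97, 1.87 and 2.05, and Unc13b, a factor of synaptic vesicle priming, from 0.46, 0.49 and 0.20 to 0.05, 0.20 and -0.01. Podxl2 lost its call without WT E14.5 replicate 1 or 2 or WT E16.5 replicate 1 or 2 (adjusted p 0.0659 to 0.118), and Unc13b without WT E14.5 replicate 1 or 2 or WT E16.5 replicate 1 or 3 (0.0613 to 0.098). A430027H14Rik lost it without WT E16.5 replicate 1 (0.0568), Zbtb22 without WT E14.5 replicate 2 or WT E16.5 replicate 2 (0.0507 and 0.0878), and 4930563E22Rik without WT E14.5 replicate 1 or 3 (0.0542 and 0.0581). Median centring also ended the calls of Gm6592, Podxl2, A430027H14Rik, Zbtb22 and 4930563E22Rik (adjusted p between 0.0811 and 0.31) and of A830092H15Rik (0.0542). The difference of A830092H15Rik was -0.10 from the Cy3 channel alone, against -0.47 in the main setting (adjusted p = 0.559), and that channel alone also left 4930563E22Rik uncalled (-0.16, adjusted p = 0.0579). Within slide 1 the calls of A430027H14Rik, Zbtb22 and 4930563E22Rik were lost (0.0568, 0.115 and 0.0917). With a replicate block and only the 6 arrays in the fit they were lost as well (0.0753, 0.0777 and 0.0824). That of Unc13b was lost in the 6-array fit both with the block (0.0514) and without it (0.0516). Podxl2 was not called with Agilent processed signals, the authors' value table or every local background as deposited (0.0922, 0.0828 and 0.215). Of the 11 named falls, Gm1673 alone kept its call in every alternative run.

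Of the small rises, C1qtnf3 had a difference of 0.34 with Agilent processed signals and with the authors' value table, against 0.74 in the main setting, and was called in neither (adjusted p = 0.178 and 0.166). C1qtnf3 and Gm36449 were not called with every local background as deposited (adjusted p = 0.226 and 0.0639).

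**Figure D3:**
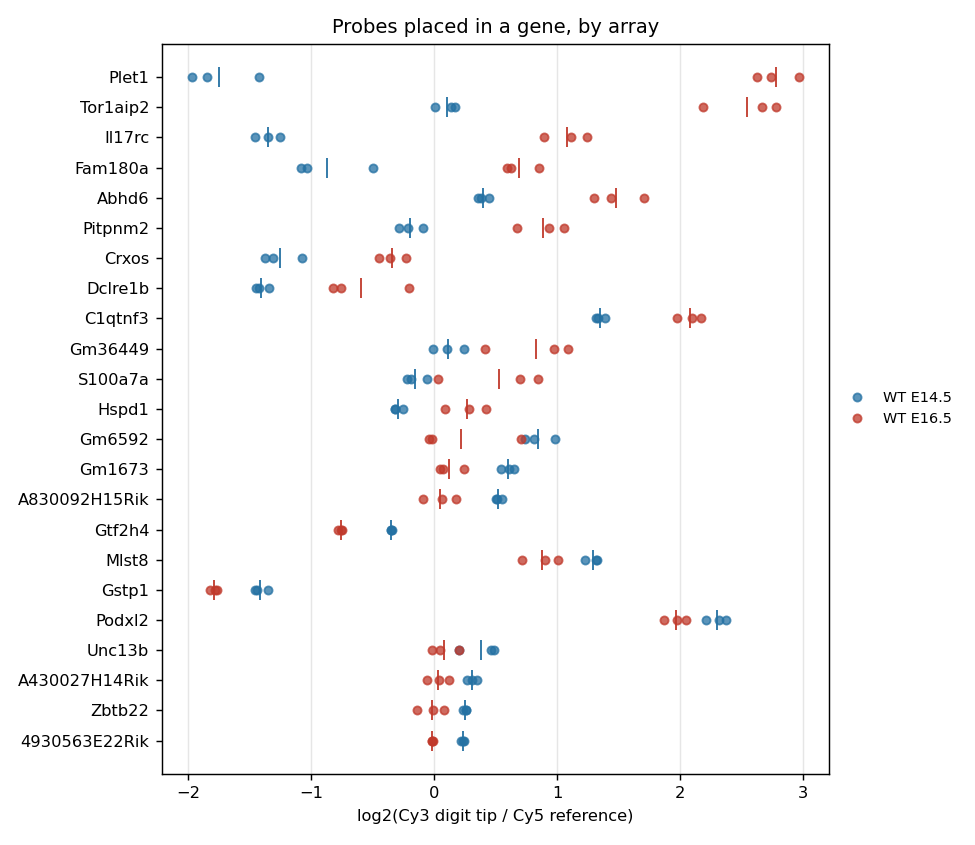
Level as log2 of Cy3 over Cy5 on the 3 WT E14.5 arrays (blue) and 3 WT E16.5 arrays (red) for the 23 named genes, with a vertical tick at each mean, rises at the top and falls at the bottom. Plet1 spans the widest gap, from -1.97 to 2.97, while the falls from Gm6592 down are separated by less than 1 unit.

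Probes that read overlapping stretches of one sequence were compared with each other. Among the tested probes, 659 pairs overlapped exactly by 20 to 60 bases, and those at 60 have the same sequence. Their differences correlated at 0.984 across pairs, which share both sequence and arrays, and the median gap within a pair was 0.04. Both probes were called in 245 of the 659 pairs, while 16.2% of all tested probes rose and 19% fell. In 136 of the 245 pairs both rose, in 109 both fell, and in 0 they went opposite ways. In 61 pairs 1 of the probes was called and the other was not. Z00076581-1, the fall with the largest error above, overlapped with Z00034757-1, whose fall was 2.03 on the log2 scale with a standard error of 0.68 (limma adjusted p = 0.0297). Both probes were read on the same arrays, so their agreement is no independent check of either fall.

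Chains of probes that share an identical run of at least 25 bases formed 46 groups of 3 or more tested probes, 172 probes in all. In 10 groups every probe rose, in 2 every probe fell, in 8 some were called, in 26 none was, and in 0 were calls of both directions present. Over all tested probes, 16.2% rose and 19% fell. Members of a group share sequence, and signal from related transcripts cannot be told apart among them. The 3 groups with the largest mean difference in size were chosen for description after their values were seen.

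The first group held Z00023905-1, Z00057869-1 and Z00075199-1, which tile one stretch. The capitals mark the 26 bases that all 3 share, shown in 2 of them.
Z00075199-1: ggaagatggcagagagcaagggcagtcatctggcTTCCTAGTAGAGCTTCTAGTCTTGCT
Z00023905-1: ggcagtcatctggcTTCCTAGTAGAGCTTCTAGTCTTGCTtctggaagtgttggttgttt
Z00075199-1 rose from -0.36, -0.24 and -0.40 to 4.46, 3.95 and 4.47, and lay at 5.32 to 6.72 at E18.5. Its fitted rise was 4.63 (standard error 0.41), and those of the other members were 3.73 and 3.60. The smallest fitted rise of the 3 was 12.1-fold, and all 3 were above background on every array of both stages.

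The second group held Z00026084-1, Z00026043-1 and Z00060172-1, with 28 shared bases in capitals. The first of these differs from the second after the shared run, so at least 2 related sequences are read.
Z00060172-1: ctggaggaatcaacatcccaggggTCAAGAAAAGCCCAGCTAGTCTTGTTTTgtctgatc
Z00026043-1: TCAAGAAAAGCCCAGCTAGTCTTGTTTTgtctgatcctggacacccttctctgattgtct
Z00026084-1: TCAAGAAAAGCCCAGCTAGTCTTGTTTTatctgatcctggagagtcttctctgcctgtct
Z00026084-1 rose from -0.25, -0.15 and -0.16 to 3.39, 3.76 and 3.62. Z00026043-1 rose from -0.08, -0.09 and -0.08 to 2.31, 2.43 and 2.61, and both were well above background on 1 of the 3 E14.5 arrays and on all 3 at E16.5. Z00060172-1, which was not well above background on any E14.5 array, lay at -0.11, -0.14 and -0.05 there and at 2.75, 2.91 and 3.03 at E16.5, and no fold is given for it.

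The third group held 8 probes that fell by 1.14 to 1.72 on the log2 scale, 7 of them with AATAAA in their letters. Those 7 read nearly the same bases, shifted by a few positions, around the same AATAAA, and Z00075781-1 and Z00076172-1 are identical. The 8 probes are therefore not separate readings of 8 sequences. Z00075783-1 lay at 1.75, 1.51 and 1.69 at E14.5, at -0.11, 0.16 and -0.28 at E16.5 and at -0.73 to -0.45 at E18.5 (log2 difference -1.72, standard error 0.19, limma adjusted p = 2.93e-06). All 8 probes had E14.5 values of 1.08 to 1.75 and E16.5 values of -0.33 to 0.26, with no overlap in any of them.

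**Figure D4:**
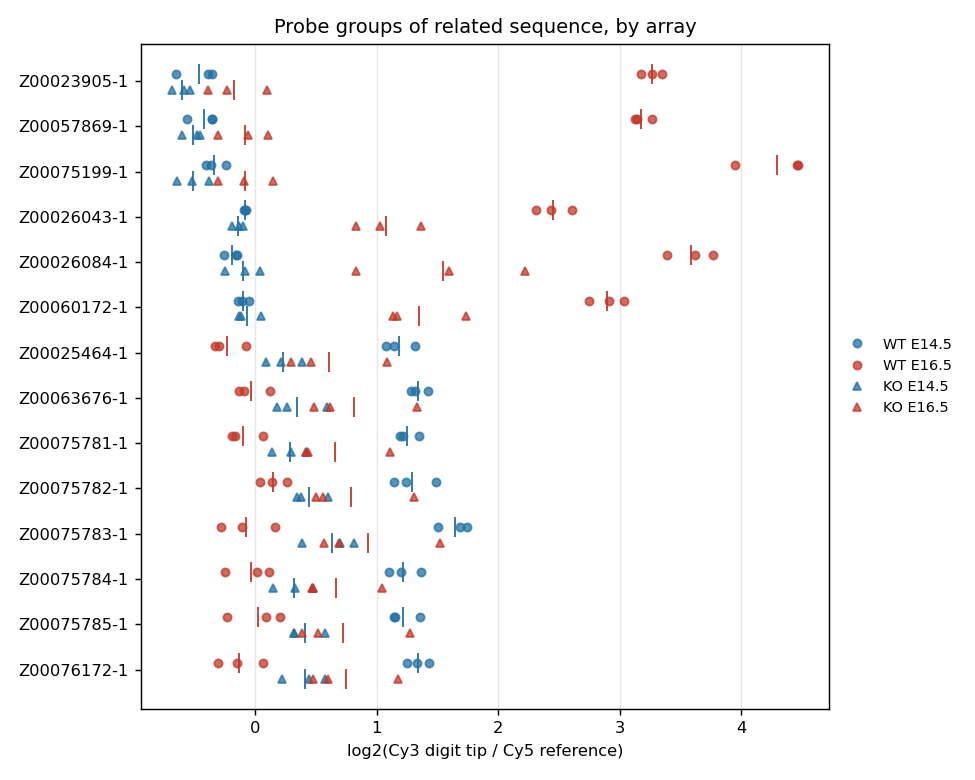
Level as log2 of Cy3 over Cy5 for the 14 probes of the 3 described groups on WT (circles) and KO (triangles) arrays at E14.5 (blue) and E16.5 (red), with a vertical tick at each mean of 3 arrays. The red circles of the first 3 probes lie between 3.12 and 4.47 while their red triangles stay between -0.39 and 0.14, and in the last 8 probes the red circles lie left of the blue circles, while 1 red triangle of each, KO E16.5 replicate 2, stands right of the other triangles.

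In their letters, the probes that changed most differed from the rest in some features. AATAAA was present in 7.69% of tested probes, in 12.3% of the rises of at least 4-fold and in 15.5% of the falls of at least 2-fold. The reverse complement TTTATT was present in 3.14%, 2.45% and 2.83% of the same sets. A reading frame without a stop codon was present in 82.4% of tested probes and in 74.3% of the falls of at least 2-fold. Over all called rises and falls AATAAA was present in 7.67% and 9.71%. The falls of at least 2-fold include the nearly identical AATAAA probes of the third group. The mean GC content was 44.7% over all tested probes, 45.1% in all called rises and 42.3% in all called falls. It was 44.7% in the rises of at least 4-fold and 41.9% in the falls of at least 2-fold. These shares are descriptions of the probes' letters and not of whole transcripts.

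The same interval in KO digit tips used none of these 6 arrays and served as a second reading of the step. Of the 4535 rises in WT, 4237 (93.4%) were also higher at E16.5 in KO, where 47.5% of all tested probes were higher. Of the 5305 falls, 4930 (92.9%) were also lower, against 52.5% of all. Across the tested probes the 2 steps correlated at 0.805, with probes and not embryos as the points. KO E14.5 and KO E16.5 were on different slides, so a slide effect is part of the KO step and its part was not tested.

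The size or direction of the step differed between the genotypes for a smaller number of probes. The test of the difference between the WT and KO steps called 1120 probes, 4% of those tested (limma interaction, adjusted p under 0.05). For 395 of the 1120 the WT and KO steps had opposite signs. Of the 1120, 634 were WT rises, 278 were WT falls and the rest were not called in WT. Among the WT rises, 530 rose more in WT and 104 rose more in KO. Among the WT falls, 263 fell more in WT and 15 fell more in KO. A probe counted as moving more in WT may have moved the other way in KO. These WT sets, like the probes and probe groups described above, were chosen on the WT values, which favours a larger step in WT. With every local background as deposited the test called 447 probes, with median centring 374, and without WT E14.5 replicate 2 it called 715.

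Several of the probes described above were among the 1120. Z00040994-1 rose by 7.11 in WT and by 1.32 in KO, where its E16.5 values were 0.15, -0.08 and 2.10, below every WT E16.5 array (difference of steps 5.79, standard error 0.56, limma adjusted p = 1.57e-05). At E18.5 it lay at 7.73, 7.84 and 8.11 in KO, against 7.28, 6.58 and 7.69 in WT, so its KO level was high by then. The first probe group rose by 3.60 to 4.63 in WT and by 0.43 in KO for each of its 3 probes (adjusted p between 4.59e-05 and 0.000408). Its KO E16.5 values, -0.39 to 0.14, lay far below the WT E16.5 values of 3.12 to 4.47. By E18.5 the KO values of this group had risen to 2.27 to 4.87, against 3.74 to 6.72 in WT. Plet1 rose by 4.53 in WT and by 1.24 in KO (difference of steps 3.29, limma adjusted p = 0.0216), with KO values of -1.35, 1.36 and -2.09 at E14.5 and 0.24, 0.65 and 0.74 at E16.5. KO E14.5 replicate 2 stood apart from the other KO E14.5 arrays for this probe and for Z00033785-1, at 3.55 against 1.18 and 0.09. Without it the difference of steps was 2.27 for Plet1 (adjusted p = 0.000353) and 2.30 for Z00033785-1 (adjusted p = 0.00501). For Plet1 the call was lost without WT E14.5 replicate 1, WT E14.5 replicate 3, WT E16.5 replicate 1 or KO E16.5 replicate 1, each taken alone, with adjusted p between 0.0532 and 0.0594, and also with Agilent processed signals (0.46), with only the 12 arrays of E14.5 and E16.5 (0.0586) and with every local background as deposited (0.0691). For Z00033785-1 it was lost without any single WT E14.5 array, WT E16.5 replicate 2 or KO E16.5 replicate 1, with adjusted p between 0.056 and 0.0652, and also with median centring (0.0823), Agilent processed signals (0.276), only the 12 arrays of E14.5 and E16.5 (0.0529) and every local background as deposited (0.0544).

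Over this interval the third probe group fell in WT and showed no called change in KO with all arrays in the fit. Its 8 probes, which mostly read nearly the same bases, fell by 1.14 to 1.72 in WT. Their KO differences of 0.29 to 0.47 did not pass the test (limma adjusted p between 0.0711 and 0.285). Some of these KO differences were called as rises when KO E14.5 replicate 1, KO E16.5 replicate 1 or KO E16.5 replicate 3 was left out. Their limma adjusted p then lay between 0.0233 and 0.0479. KO E16.5 replicate 2 stood above the other KO E16.5 arrays, at 1.05 to 1.52 against 0.30 to 0.69, and without it the KO differences were between -0.002 and 0.20. The steps differed between the genotypes (interaction adjusted p between 0.000162 and 0.00265), also without that array (0.000137 to 0.00153). The KO arrays started lower, at 0.09 to 0.81 at E14.5 against 1.08 to 1.75 in WT, and lay at 0.30 to 1.52 at E16.5. At E18.5 the 8 probes were low in both genotypes, at -0.90 to -0.19 in KO and -0.95 to -0.22 in WT. On the WT E18.5 arrays Z00075783-1 was well above background on all 3, and the other members on 0 to 2. Most of these E18.5 values therefore lie near background and give no firm level. Other large changes were close in size in both genotypes. Z00059474-1 rose by 6.60 in WT and 6.40 in KO, and Z00018218-1 fell by 2.29 in WT and by 2.25 in KO, and neither pair was called different (adjusted p = 0.795 and 0.959). Il17rc rose by 2.43 in WT and 2.70 in KO.

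**Figure D5:**
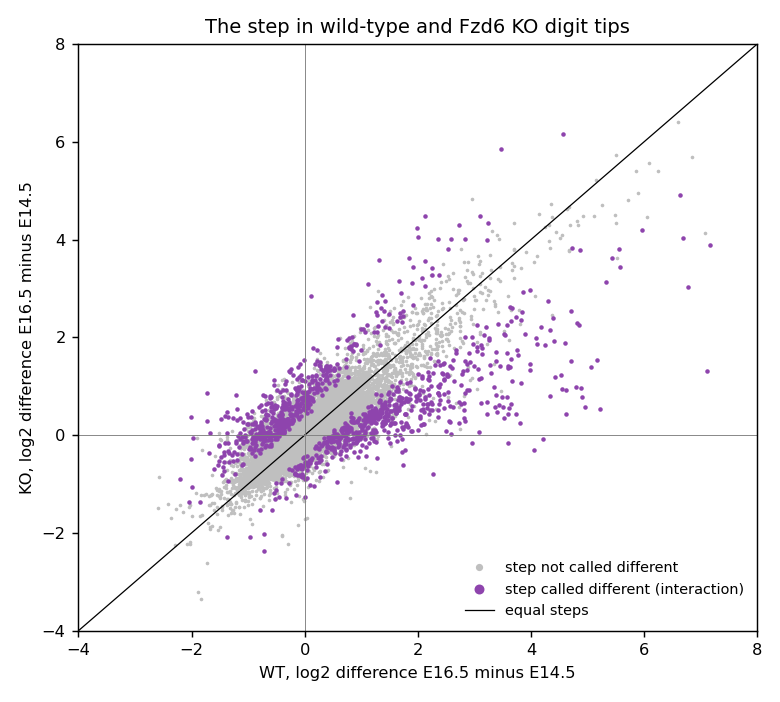
Log2 difference E16.5 minus E14.5 in KO against that in WT, 1 point per tested probe, with the 1120 probes whose steps were called different in purple and equal steps on the black line. Most points follow the line (r = 0.805 across probes), and a band of purple points lies at high WT values with KO values near 0 to 2.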

How the data were processed

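Per the file headers, the deposited scanner output gives spot and local background intensity values of both dyes from Agilent Feature Extraction 9.5.1.1. They also hold intensity values the software had processed. The value table's log10 ratio (scale and direction taken from the scanner values, since the authors' deposited table states neither) served as an alternative, together with a per-probe constant of unknown origin that cancels in differences. Total RNA was extracted with Trizol and labelled with a low-input kit, per the labels.

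Intensities were corrected with normexp (offset 50) and loess-normalized within arrays in R 4.3.3 with limma 3.58.1. Before this, after the data were seen, spots the scanner software had flagged as background outliers were given the array's median background. Of 43451 spots, 1417 control spots and 4 to 34 outlier spots per array were left out, and no Cy3 spot was saturated. Tested probes had Cy3 signals well above background throughout at least 1 of the 6 groups (3 arrays each), and 2 or more values per group. All 18 arrays entered the fit, with a mean for each group (lmFit, eBayes), two-sided, Benjamini-Hochberg over 27989 probes, threshold 0.05. Named by ID were the 10 largest rises and falls, and by gene up to 12 each way, with adjusted p under 0.05, non-overlapping arrays and signal well above background on all 3 arrays of the higher stage. A bound that came out larger than the fit's own fold was left out. On simulated arrays the fit found 64% of 50 probes changed 1.5-fold, 84% of 50 changed 2-fold and 100% of 50 changed 4-fold. It called 7 unchanged probes. The test of the difference between steps called 44%, 74% and 96% of the same sets. The simulated noise was independent, had the same SD for a probe in every group, and held no slide or array effects. The real stages differed in spread, so these figures are not error rates of the real comparison. The number of arrays limits the precision. Lists, the interval and the tests were chosen with earlier results of these data known.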

Additional observations from a re-analysis of the deposited data

Results flagged for a closer look

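The groups of 3 arrays are too small for the test of single outlying arrays, so each result here was picked out because the step differed between WT and KO digit tips in the test of that difference. It did so for 1120 probes. Among the probes described, the WT step minus the KO step was 3.27 for Z00033785-1, 5.79 for Z00040994-1, 3.74 for Z00071877-1, 2.66 for Z00042903-1 (-0.37, of the other sign, with Agilent processed signals) and 1.73 for Z00022762-1 on the log2 scale. Z00040994-1, Z00071877-1 and Z00042903-1 were above background on none of the WT E14.5 arrays and Z00033785-1 on 1, so their values start from a level near background. The WT step minus the KO step was -1.32 for the falling probe Z00023199-1 and 3.29 for Plet1. In the first group of related sequence it was 3.30 for Z00023905-1, 3.17 for Z00057869-1 and 4.20 for Z00075199-1. In the second it was 1.32 for Z00026043-1, 2.13 for Z00026084-1 and 1.58 for Z00060172-1, which was above background on none of the WT E14.5 arrays and turned to -0.13 with Agilent processed signals. The other members of that group were above background on 1 WT E14.5 array each. In the third it was -1.80 for Z00025464-1, -1.84 for Z00063676-1, -1.72 for Z00075781-1, -1.49 for Z00075782-1, -2.02 for Z00075783-1, -1.60 for Z00075784-1, -1.51 for Z00075785-1 and -1.81 for Z00076172-1. Of these 21 probes, 8 kept the call with Agilent processed signals (Z00040994-1, the first group, and Z00025464-1, Z00075781-1, Z00075783-1 and Z00075784-1 of the third) and 13 lost it. KO E14.5 and KO E16.5 lay on different slides, so slide and stage are mixed in the KO step.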

How the results depend on the processing

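The count of 9840 changed probes was 4455 with median centring and 1724 when a change of at least 2-fold was also asked. Under the other alternatives it lay between 6671 (the authors' value table, which covers 17505 of the tested probes) and 10424, and with every local background as deposited, an alternative chosen after seeing the data, it was 7923. Leaving out 1 array at a time gave 7740 to 10172. Replicate numbers did not pair the arrays: deviations of same-numbered WT arrays from their group means correlated at -0.27, 0.04 and -0.05. With a replicate block and only the 6 arrays in the fit the count was 8825. A replicate block on all 18 arrays called 1033 probes with a different step in KO. That second count, 1120 in the main setting, was 374 with median centring and 447 with every local background as deposited, and 715 to 1379 with 1 array left out. The Pax7 difference passed the test under no alternative that gave a value, and as it had 1 tested probe the mean over probes was the same value. Of the 20 probes named by ID, 18 kept their call in every alternative run, and none of these, the 23 named genes or the 14 grouped probes changed sign in the WT step. The calls of 12 named genes were lost in at least 1 alternative. The difference between the WT and KO steps changed sign with Agilent processed signals, which have no offset, for Z00042903-1 (-0.37), Z00060172-1 (-0.13) and Z00077092-1 (-1.74), and the cause was not tested. Those 3 probes were above background on at most 1 WT array at E14.5.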
